A study of Mus musculus with 2 samples.

Results

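Amacrine and horizontal cell precursors of the mouse embryonic eyecup were described from 2 single-cell RNA-seq libraries, one per genotype. Precursors were picked by their counts of unique molecular identifiers (UMIs, each standing for one captured RNA molecule). A cell was a precursor when *Ptf1a*, *Tfap2a* and *Tfap2b* together gave 3 or more UMIs, *Isl1* and *Pou4f2* together fewer than 2, and *Atoh7* fewer than 3. By this rule 246 of 17458 cells that passed quality limits were precursors, 76 from the control and 170 from the DKO. The rule used measured values, so the levels of its 6 genes describe the choice and are not results.

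Both libraries came from littermate embryos at embryonic stage E13.5. The control had the genotype Six3+/-;Six6+/-, without the Cre transgene, and its *Six3* null allele came from leaky Cre activity in the paternal germ line. The DKO had the genotype Six3F/F;Six6-/-;a-Cre. In the DKO *Six6* was lost in every cell, whereas floxed *Six3* (allele F) was removed only where α-Cre was active, in the peripheral retina, so DKO eyecups also held cells that kept *Six3*. Each library was made from the eyecups of a single embryo, with retina, lens and blood, and the DKO embryo was recognized by GFP-positive rosettes in its retinas. With 1 library per genotype there was no replicate, no test between genotypes was possible, and intervals below are 95% intervals for counting error only.

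Amacrine and horizontal cells are the interneurons of the retina. Horizontal cells feed back onto photoreceptors in the outer retina, and amacrine cells modulate bipolar and ganglion cells in the inner retina. Both arise from progenitors that switch on *Foxn4* and then *Ptf1a*, a basic helix-loop-helix factor that both cell types need. *Tfap2a* and *Tfap2b*, AP-2 family transcription factors, act downstream of *Ptf1a*, and *Prdm13* is a *Ptf1a*-dependent factor that favors amacrine fates. *Onecut1*, *Onecut2*, *Prox1* and *Lhx1* encode transcription factors of horizontal cells, whereas *Isl1*, *Pou4f2* and *Atoh7* mark ganglion cells and their progenitors.

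The label of the cells was checked first. *Prdm13*, which the rule did not use, had 256 UMIs over the 76 control precursors and 131 UMIs over the 7255 other control cells. In the DKO it had 341 UMIs over the 170 precursors and 133 over the 9957 other cells. The chosen cells were not all of this type, however. In 31 of 246 (7 control and 24 DKO cells), 5 or more UMIs came from marker lists of mesenchyme, surface ectoderm or lens. Of these, 22 were marked by mesenchyme genes (3 control, 19 DKO) and 8 by lens crystallin and lens fiber genes (4 control, 4 DKO). *Ptf1a* had no UMI in 29 of the 31, *Prdm13* had none in 29, and *Onecut2* had 1 or none in 29. All 22 mesenchyme-marked cells had a *Tfap2b* UMI, and 7 of the 8 lens-marked cells had a *Tfap2a* UMI. A DKO cell among the 31 had 10.4% hemoglobin UMIs. The remaining 215 cells (69 control, 146 DKO) are called neural precursors here. In them the mesenchyme list gave 0 to 2 UMIs per control cell and no UMI in any DKO cell, and the lens list gave 0 to 4 and 0 to 2. Not every one of the 215 carried the further markers of the label. In 3 control and 19 DKO cells neither *Prdm13* nor *Ptf1a* had a UMI, and 4 DKO cells were chosen by *Tfap2a* alone. Ectopic markers described at the end were seen in 6 DKO cells, and these included most of the cells chosen by *Tfap2a* alone. Ratios below are over the 215 cells unless all precursors are named.

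**Figure D1:**
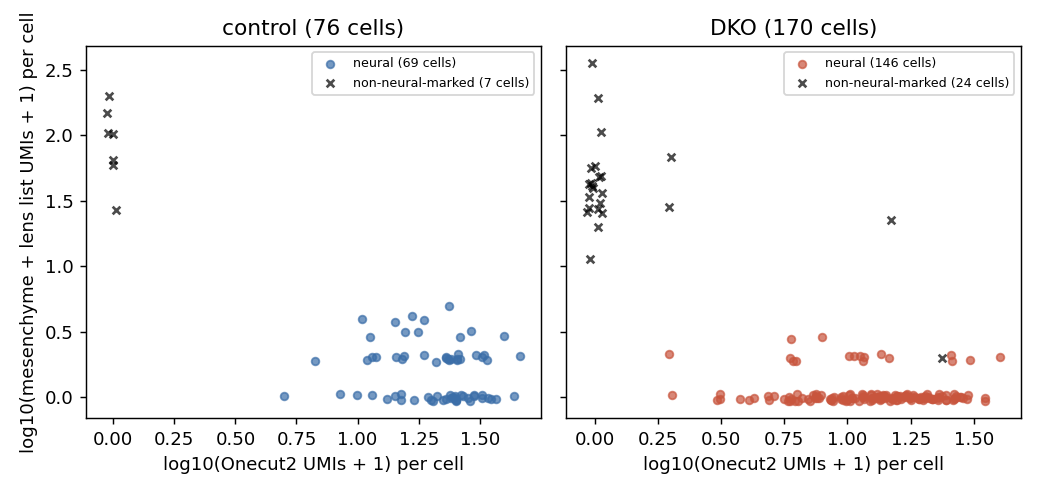
Onecut2 UMIs per precursor (x axis, log10 of the count plus 1) against summed UMIs of the mesenchyme and lens marker lists (y axis, same scale), one point per cell with a small random shift, control left and DKO right. The 69 control and 146 DKO neural precursors lie along the bottom with Onecut2 UMIs, while 29 of the 31 non-neural-marked cells (crosses) have 1 or no Onecut2 UMI.

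*Onecut2* and *Prdm13* were detected in most neural precursors of both genotypes. *Onecut2* was detected in 69 of 69 control cells (4, 22 and 43 UMIs at the lowest, median and highest cell) and in 146 of 146 DKO cells (1, 12 and 39 UMIs). *Prdm13* was detected in 61 of 69 control and 115 of 146 DKO cells. Free RNA of *Prdm13* was gauged from red blood cells, which should lack it. *Onecut2* had 20220 UMIs over other control cells, and its free RNA was not gauged here. With cells thinned to 2000 UMIs and shallower ones left out, *Prdm13* was found in 60.9% of control neural precursors and 0.288% of control red blood cells, and the DKO shares were 58.7% and 0.435%. Before thinning, the median depth was 5370 UMIs in control and 3813 in DKO neural precursors, against 8110 and 5881 UMIs in the red blood cells.

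The share of cells that were precursors was higher in the DKO library. Precursors made up 1.04% (interval 0.818 to 1.30) of kept control cells and 1.68% (1.44 to 1.95) of kept DKO cells, a log2 ratio of 0.70 (0.30 to 1.11). Neural precursors made up 0.941% (0.733 to 1.19) and 1.44% (1.22 to 1.69). At equal depth, with cells thinned to 2000 UMIs and shallower ones left out (387 control and 651 DKO cells, 3 of them DKO neural precursors), the rule found 0.706% and 1.14%, and the DKO share was the higher one there too. The limits on *Isl1*, *Pou4f2* and *Atoh7* bore on the size of the difference. Without them the shares were 1.56% (1.28 to 1.87) and 1.92% (1.66 to 2.20), and the log2 ratio of 0.30 had an interval that included 0 (-0.04 to 0.65). Among cells with 3 or more UMIs of the fate genes, 33 of 114 control cells (28.9%) but 19 of 194 DKO cells (9.79%) exceeded the *Atoh7* limit, and 21 and 5 exceeded the *Isl1* and *Pou4f2* limit. Just inside the rule, 9 control and 29 DKO precursors had exactly 3 fate UMIs, and just outside it 13 control and 38 DKO cells met the other limits with exactly 2. A share does not tell apart more precursors from fewer cells of other kinds.

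**Figure D2:**
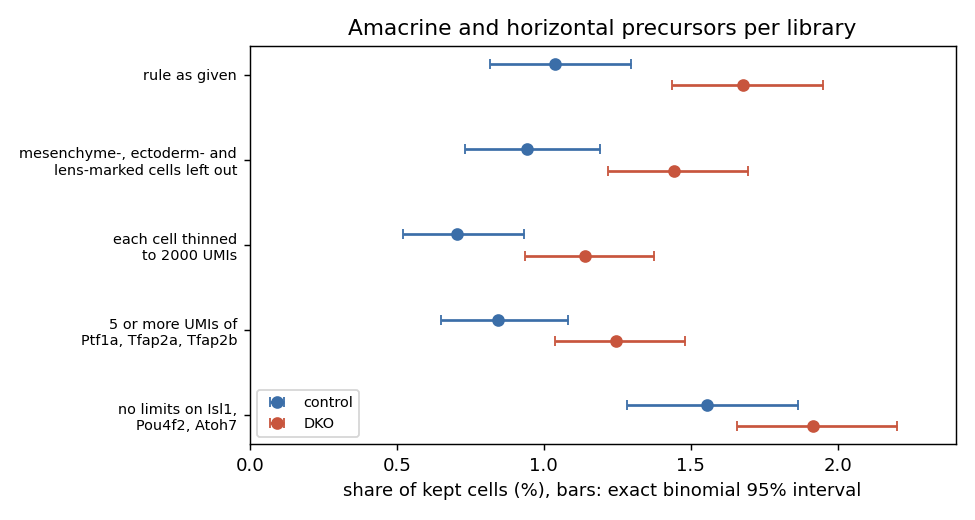
Share of kept cells called precursors (x axis, %) in the control and DKO libraries under 5 ways of choosing them, with exact binomial 95% intervals for counting error. The DKO point lies to the right of the control point in each row, and the intervals overlap most without the limits on Isl1, Pou4f2 and Atoh7 (1.56% and 1.92%).

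The fate genes that chose the cells were found in different combinations in the 2 libraries. A *Ptf1a* UMI was present in 58 of 69 control and 102 of 146 DKO neural precursors. *Ptf1a* with *Tfap2b* but without *Tfap2a* was the most common combination, in 50 control cells (72.5%) and 71 DKO cells (48.6%). *Tfap2a* was seen in 9 control and 49 DKO cells. *Tfap2a* with *Tfap2b* and without *Ptf1a* was seen in 3 control and 21 DKO cells. Summed over neural precursors, *Tfap2b* stood at 1129 and 1155 UMIs per 1000000 UMIs (CPM) in control and DKO, *Ptf1a* at 385 and 421 CPM, and *Tfap2a* at 30.3 and 142 CPM. These values describe cells selected on the sum of the same genes. The detection counts were not taken at equal depth, and the median was 5370 UMIs in control and 3813 in DKO neural precursors. The part of depth in the combinations was not tested.

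*Six6* transcripts were nearly absent from DKO neural precursors, and *Six3* transcripts were not lower. *Six6* (chr12:72939892-72944899, plus strand, GRCm38) had a UMI in 43 of 69 control cells and in 8 of 146 DKO cells, with no DKO cell above 1 UMI. Its level was 243 CPM (198 to 294) in control and 12.4 CPM (5.34 to 24.4) in DKO. *Six3* (chr17:85613608-85629302) had a UMI in 66 of 69 control and 139 of 146 DKO cells, with 0, 4 and 15 UMIs at the lowest, median and highest control cell and 0, 4 and 18 in the DKO. Its level was 716 CPM (638 to 801) in control and 965 CPM (891 to 1044) in DKO, a log2 ratio of 0.43 (0.23 to 0.63). The control carries a *Six3* null allele. Which DKO precursors lost *Six3* was not determined here.

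The horizontal cell genes did not move as one group. Genes were compared when their UMIs over both libraries' precursors summed to at least 60, and called when the level differed by 2-fold or more. Over all precursors 67 of 4004 genes were called higher in the DKO, a background of 1.67%, and 34 were called lower, a background of 0.849%. Over neural precursors 43 of 3289 genes were called higher (1.31%) and 37 lower (1.12%). Of 11 horizontal genes 6 could be compared, and 2 of the 6, *Lhx1* and *Onecut3*, were called higher both over all precursors and over neural precursors. None was called lower. The median log2 ratio of the 6 was 0.33 over neural precursors, beside 0.03 for all genes compared.

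*Lhx1* (chr11:84518284-84525535), a LIM homeodomain factor that positions horizontal cells, was detected in 8 of 69 control and 42 of 146 DKO neural precursors. Its level was 46.7 CPM (28.5 to 72.1, from 20 UMIs) in control and 119 CPM (94.0 to 149, from 77 UMIs) in DKO, a log2 ratio of 1.35 (0.63 to 2.14). At 2000 UMIs a cell, *Lhx1* was found in 4.35% of control neural precursors (0.906 to 12.2), whereas the DKO share was 15.4% (9.90 to 22.4), and these intervals overlapped. Without cells over 10000 UMIs the ratio was 1.01 (0.27 to 1.83), and with equal weight per cell over all precursors it was 0.98, just under the limit. *Lhx1* was also higher in DKO cells that were not precursors, at 0.110 CPM in other control cells and 9.99 CPM in other DKO cells, so the precursors stood 424-fold above the other cells in control and 11.9-fold in DKO. Thinned red blood cells had an *Lhx1* UMI in 0 of 1390 control cells and in 0.217% of 920 DKO cells, and the part of free RNA in the precursor difference was not tested.

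*Onecut3* stood at 60.7 CPM (39.6 to 88.9) in control and 133 CPM (106 to 164) in DKO neural precursors, a log2 ratio of 1.13 (0.49 to 1.82). It was detected in 15 of 69 and 45 of 146 cells. Over all precursors *Onecut3* only just passed the 2-fold limit. It fell short with doublets left out (0.84), equal weight per cell (0.85), 5 or more fate UMIs (0.96) or another total (0.97). Without cells with ectopic markers it stayed past the limit (1.06). So did neural precursors without cells over 10000 UMIs (1.17, 0.43 to 1.98) and with the *Isl1*, *Pou4f2* and *Atoh7* limits lifted (1.675). *Prox1*, a homeobox gene that horizontal cells need, stood at 306 and 385 CPM, a log2 ratio of 0.33 (0.02 to 0.65) that was under the 2-fold limit. *Onecut1* gave 103 and 128 CPM, with a log2 ratio of 0.32 and an interval that included 0 (-0.22 to 0.88). *Onecut2* gave 3465 CPM in control and 3039 CPM in DKO, a log2 ratio of -0.19 (-0.29 to -0.09). The corepressor gene *Tle1* gave a log2 ratio of 0.10 (-0.44 to 0.66). *Sall1*, *Sall3*, *Calb1*, *Megf11* and *Slc4a5* had from 0 to 12 UMIs per library, too few to compare.

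No amacrine gene was called over all precursors or over neural precursors. Of 25 genes 13 could be compared, 9 lay above and 4 below a log2 ratio of 0, and their median was 0.33 over all precursors and 0.13 over neural precursors. *Prdm13* gave 597 CPM (526 to 675) in control and 521 CPM (467 to 580) in DKO neural precursors, a log2 ratio of -0.20 (-0.44 to 0.04). Its interval left out 0 over all precursors (-0.31, -0.55 to -0.07) and in neural precursors without cells over 10000 UMIs (-0.35, -0.60 to -0.10). It included 0 with cells thinned (-0.14, -0.58 to 0.31) and with the *Isl1*, *Pou4f2* and *Atoh7* limits lifted (0.20, -0.03 to 0.42). *Barhl2*, a homeobox gene of amacrine and ganglion subtypes, gave 72.3 and 128 CPM (0.83, 0.22 to 1.47). *Gad2*, an enzyme of GABA synthesis, gave 63.0 and 105 CPM (0.74, 0.08 to 1.44). *Nhlh2* gave 163 and 280 CPM (0.78, 0.37 to 1.20). *Tcf4* was lower in the DKO, at 495 and 359 CPM (-0.46, -0.74 to -0.19). *Elavl3*, which encodes a neuronal RNA-binding protein, gave 868 and 949 CPM (0.13, -0.06 to 0.32). *Slc32a1*, the vesicular transporter of GABA and glycine, passed the count minimum with 21 and 51 UMIs and had a log2 ratio of 0.69 (-0.07 to 1.49). With the *Isl1*, *Pou4f2* and *Atoh7* limits lifted its ratio was 1.21 (0.48 to 1.98), past the 2-fold limit. *Gad1* and *Slc6a9* had 0 UMIs in control neural precursors and 2 and 1 in DKO ones. *Chat* had no UMI in either library, and *Th* had 1 in the DKO.

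**Figure D3:**
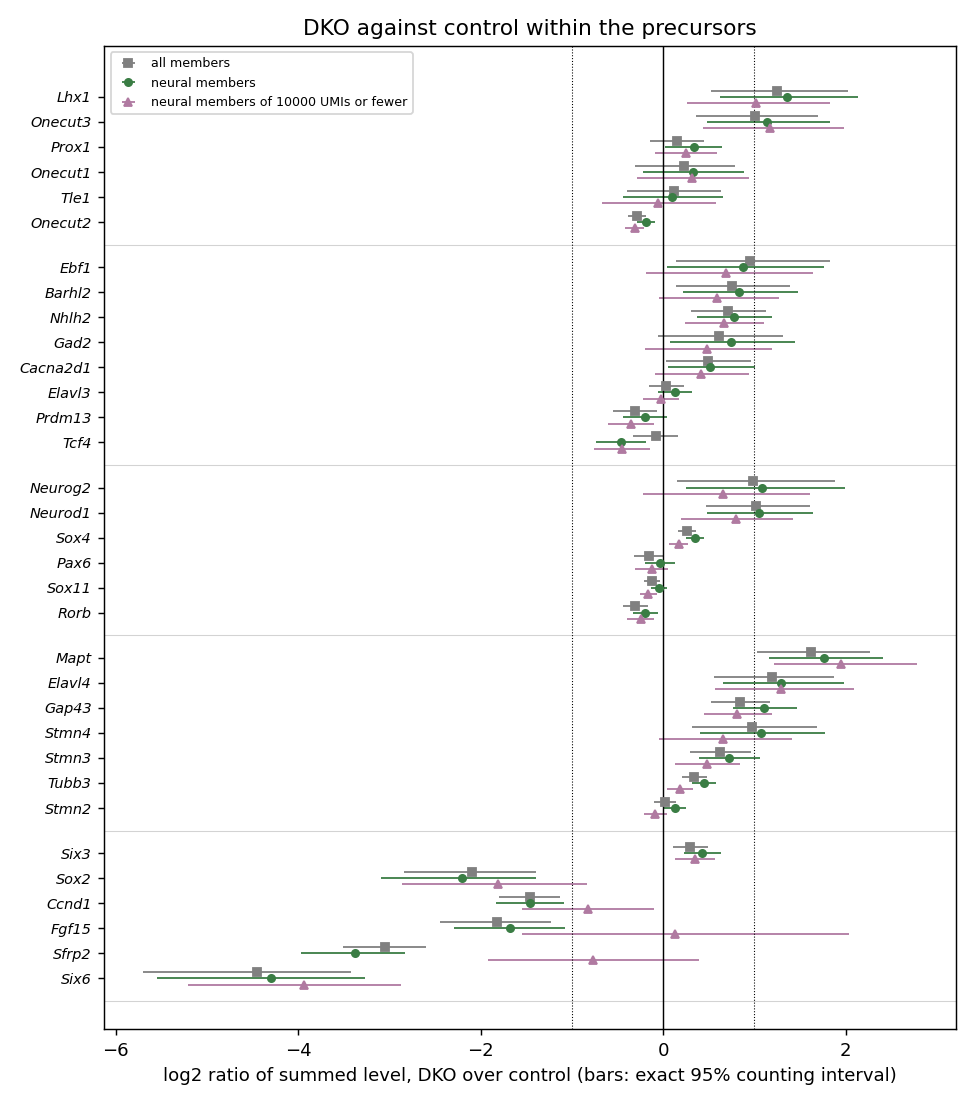
Log2 ratio of the summed level in DKO over control precursors (x axis) for genes of the horizontal, amacrine, upstream, neuron, and eye and progenitor groups, top to bottom, over all precursors (squares), neural precursors (circles) and neural precursors of 10000 UMIs or fewer (triangles). Bars are exact 95% counting intervals and dotted lines mark the 2-fold limits. Lhx1, Onecut3, Mapt and Elavl4 lie above 1 in neural precursors, and Sfrp2 and Fgf15 move toward 0 without the deepest cells.

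Of the genes that act before or with *Ptf1a*, the proneural ones differed most. Of 10 such genes 6 could be compared, and *Neurod1* and *Neurog2*, which encode basic helix-loop-helix factors of neurogenesis, were called higher over neural precursors. *Neurod1* gave 81.7 CPM in control and 169 CPM in DKO (log2 ratio 1.05, 0.48 to 1.64). *Neurog2* gave 37.3 and 78.9 CPM (1.08, 0.25 to 1.99), and over all precursors its ratio of 0.98 fell short of the limit. Without cells over 10000 UMIs both fell short of the limit, at 0.79 (0.20 to 1.43) and 0.65 (-0.22 to 1.61). With the *Isl1*, *Pou4f2* and *Atoh7* limits lifted the *Neurod1* ratio was -0.061 (-0.40 to 0.27). *Sox4*, a SOX factor of young neurons, gave a log2 ratio of 0.35, *Pax6* -0.03, *Sox11* -0.05 and *Rorb* -0.20. *Pax6* was detected in 69 of 69 control and 138 of 146 DKO neural precursors. *Foxn4* had 3 UMIs in control and 1 in DKO neural precursors, while it stood at 55.4 and 52.9 CPM in cells with 3 or more *Atoh7* UMIs. Of 11 neurogenic progenitor genes 4 could be compared and none was called. *Insm1* gave a log2 ratio of 0.18, *Hes6* -0.17, *Btg2* -0.28 and *Gadd45a* -0.31.

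Pan-neuronal genes lay above 0 almost throughout. Of 15 genes 14 could be compared, 13 of them had a positive log2 ratio over neural precursors (median 0.57) and 4 were called higher. *Mapt*, which encodes the microtubule protein tau, was detected in 17 of 69 control cells. In the DKO it was detected in 70 of 146. Its level was 63.0 CPM (41.5 to 91.7) against 213 CPM (179 to 252), a log2 ratio of 1.76 (1.16 to 2.41). At 2000 UMIs a cell it was found in 11.6% (5.14 to 21.6) and 32.9% (25.2 to 41.2) of cells. *Elavl4*, a neuronal RNA-binding protein gene, had a log2 ratio of 1.29 (0.65 to 1.98), *Gap43*, a growth cone protein gene, 1.11 (0.76 to 1.47) and *Stmn4* 1.07 (0.40 to 1.78). Over all precursors *Mapt* and *Elavl4* were called. Without cells over 10000 UMIs *Gap43* stood at 0.81 and *Stmn4* at 0.65, and with the *Isl1*, *Pou4f2* and *Atoh7* limits lifted *Elavl4* stood at -0.14 (-0.45 to 0.17). *Tubb3* (0.44), *Stmn2* (0.13) and *Map1b* (-0.11) stayed under the limit. The same genes were measured in other cells. *Mapt* gave a log2 ratio of 1.13 in ganglion-marked cells (*Isl1* and *Pou4f2* of 3 or more UMIs) and 2.39 in *Atoh7* cells (3 or more UMIs, few of *Isl1* and *Pou4f2*), and *Elavl4* gave 0.11 and 2.04. Whether the precursors differed from those cells in their response was not tested.

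**Figure D4:**
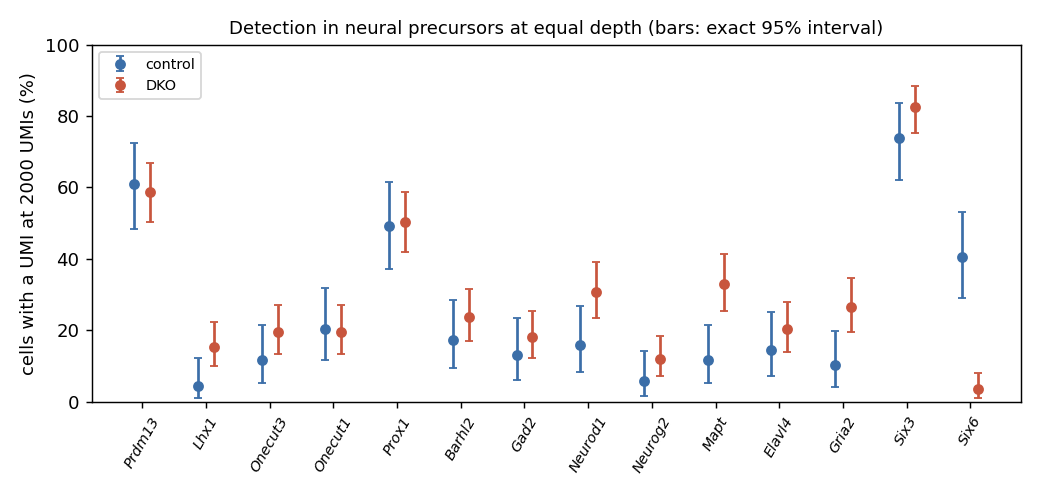
Share of neural precursors with at least 1 UMI of each gene after thinning to 2000 UMIs, shallower cells left out (y axis, %), control and DKO, with exact binomial 95% intervals. Mapt has the higher share in the DKO (32.9%, control 11.6%) and Six6 in the control (40.6%, DKO 3.50%), while the intervals of Prdm13 and of Prox1 overlap.

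Progenitor genes had lower levels in DKO precursors, but a few cells held most UMIs of *Sfrp2*, *Fgf15*, *Id1* and *Ccnd1*. Of 17 naïve progenitor genes 10 could be compared over neural precursors, all 10 had a negative log2 ratio and 5 were called lower, namely *Sfrp2*, *Sox2*, *Fgf15*, *Id1* and *Ccnd1*. *Sfrp2*, a secreted Wnt modulator, had 214 UMIs in control and 31 in DKO neural precursors (-3.38, -3.97 to -2.83). Of the 214 control UMIs, 200 came from 8 cells of more than 10000 UMIs. Without these 8 control cells and 5 equally deep DKO cells its ratio was -0.77 (-1.92 to 0.39), and that of *Fgf15* moved from -1.67 to 0.13 (-1.55 to 2.03). *Ccnd1*, which drives entry into S phase, moved from -1.46 to -0.82 (-1.55 to -0.10). *Id1*, an inhibitor of basic helix-loop-helix factors, stood at -1.31 (-2.58 to -0.09), with 15 control and 11 DKO UMIs in the shallower cells. *Sox2*, a progenitor transcription factor that some amacrine cells retain, stayed lower at -1.81 (-2.86 to -0.83), with 27 control and 14 DKO UMIs there. In the shallower cells *Sfrp2*, *Fgf15*, *Id1* and *Sox2* were each under the minimum of 60 UMIs, so none of them could be called. Of 11 early-response and stress genes 6 could be compared, and *Fos* (-1.59), *Ier2* (-1.33) and *Egr1* (-1.19) were called lower over neural precursors. Their part in the other differences was not tested. Doublets were called in 4 control and 4 DKO neural precursors, and several of these were deep cells. They had 6380, 14353, 15806 and 24913 UMIs in control and 9298, 9552, 12401 and 16220 in DKO. Over all precursors with doublets left out, *Sfrp2* stood at -2.655 (-3.22 to -2.12). The deep cells were not tested as doublets beyond that call.

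Lists of cell cycle genes reached 5 or more UMIs in a minority of neural precursors, in counts not taken at equal depth. A list of 16 S phase genes reached 5 or more UMIs in 10 of 69 control and 7 of 146 DKO cells, with a median of 1 UMI in both. A list of 16 mitotic genes reached 5 or more UMIs in 4 of 69 control and 3 of 146 DKO neural precursors, and the median cell had none in either library. *Cdkn1c*, an inhibitor of the cell cycle, was present in 50 and 106 cells at 933 and 936 CPM. Photoreceptor genes were near 0: none of 12 could be compared, and *Crx* had no UMI in either library. *Otx2* had 3 UMIs in control and 12 in DKO neural precursors.

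Apart from these groups, the genes with the highest ratios over all precursors mainly followed the marked cells, whereas most of the lowest did not. The 10 highest were *Spp1*, *Mgp*, *Pmel*, *Crym*, *Hbb-bs*, *Hbb-bt*, *Stc1*, *Sat1*, *Samd5* and *Nrp2*. *Spp1* and *Mgp*, genes of extracellular matrix proteins, had no UMI in any neural precursor, nor did *Crym*. *Pmel*, a pigment granule gene, had 75 UMIs over DKO precursors, of which 73 were in a single cell. Of the 10 lowest, *Cdh6* had 58 UMIs in control precursors but 7 in the neural ones. *Six6* (-4.29), *Sfrp2* (-3.38), *Sox2* (-2.21), *Hbb-y* (-1.71), *Fgf15* (-1.67) and *Chodl* (-1.41) stayed lower over neural precursors. *Hist1h2ap*, *Hist1h2ae* and *Mki67* could not be compared there. Over neural precursors, and named after their values were seen, the highest genes after *Tfap2a* were *Cadm2* (1.89, 0.91 to 3.03), *Kcnk1* (1.78), *Mapt*, *Gria2* (1.70, from 56.0 to 182 CPM) and *Gpalpp1* (1.65). *Cadm2* encodes a synaptic adhesion molecule, *Kcnk1* a potassium channel and *Gria2* a glutamate receptor subunit. The lowest were *Six6*, *Sfrp2*, the linker histone gene *Hist1h1b* (-2.24), *Sox2* and *Zfp36l1* (-1.93). Without the cells over 10000 UMIs *Hist1h1b* stood at -0.06.

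Of the lower genes, *Lmo1* (named after its values were seen) and *Chodl* did not rest on the deepest cells and were high in the precursors. *Lmo1*, which encodes a LIM-only transcriptional cofactor, was detected in 57 of 69 control and 54 of 146 DKO neural precursors, at 317 CPM (266 to 375) and 131 CPM (105 to 163), a log2 ratio of -1.27 (-1.68 to -0.87). At 2000 UMIs a cell it was found in 50.7% (38.4 to 63.0) and 21.7% (15.2 to 29.3). Without cells over 10000 UMIs its ratio was -1.55 (-1.98 to -1.12). In all other kept cells its ratio was 0.04, and in ganglion-marked cells -0.80. *Chodl*, which encodes chondrolectin, gave 103 and 38.7 CPM (-1.41, -2.18 to -0.67), and was 28.2-fold above other cells in control. It was lower in DKO ganglion-marked cells (-2.03) and *Atoh7* cells (-1.35) as well. *Gm14226*, on the neurogenic list, had 22 UMIs in control and 0 in DKO precursors, where the floor of 3 UMIs stands at 4.64 CPM over neural precursors. It was nearly absent from all DKO cells, at 31.7 CPM in other control cells and 0.0848 CPM in other DKO cells. Embryonic hemoglobin *Hbb-y* (-1.71) moved the same way in other cells, with a ratio of -1.25 there, and the part of free RNA from blood was not tested.

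Beyond the rule, precursors of both genotypes shared genes that other kept cells had at low levels. These genes lead a chosen group against the rest and are a description. In control neural precursors *Vtn*, which encodes vitronectin, stood 110-fold above other control cells, *Slc1a6*, a glutamate transporter gene, 93.2-fold, and *Nrxn3*, a presynaptic adhesion gene, 58.0-fold. In the DKO they stood 38.4-fold, 41.0-fold and 18.8-fold above other DKO cells, where their background level was higher (3.26, 4.72 and 25.4 CPM, against 1.44, 1.73 and 6.23 in control). Within the precursors their log2 ratios between genotypes were -0.34 (-0.82 to 0.15), 0.26 (-0.17 to 0.71) and 0.40 (0.11 to 0.69). *Slc32a1* was 184-fold and 112-fold above the other cells. *Adamts4*, *Pgbd5* and *Ndrg1* were 29.4-fold, 24.1-fold and 20.3-fold above other control cells. *Col3a1*, a collagen gene of mesenchyme with 60 UMIs over all control precursors, came from the marked cells. *Cldn5*, a tight junction gene of endothelium, was also found in 15 of 69 control and 36 of 146 DKO neural precursors, at 84.0 and 99.0 CPM, against 0.675 and 0.537 CPM in other cells. The endothelial genes *Cdh5*, *Emcn* and *Esam* had no UMI in neural precursors.

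**Figure D5:**
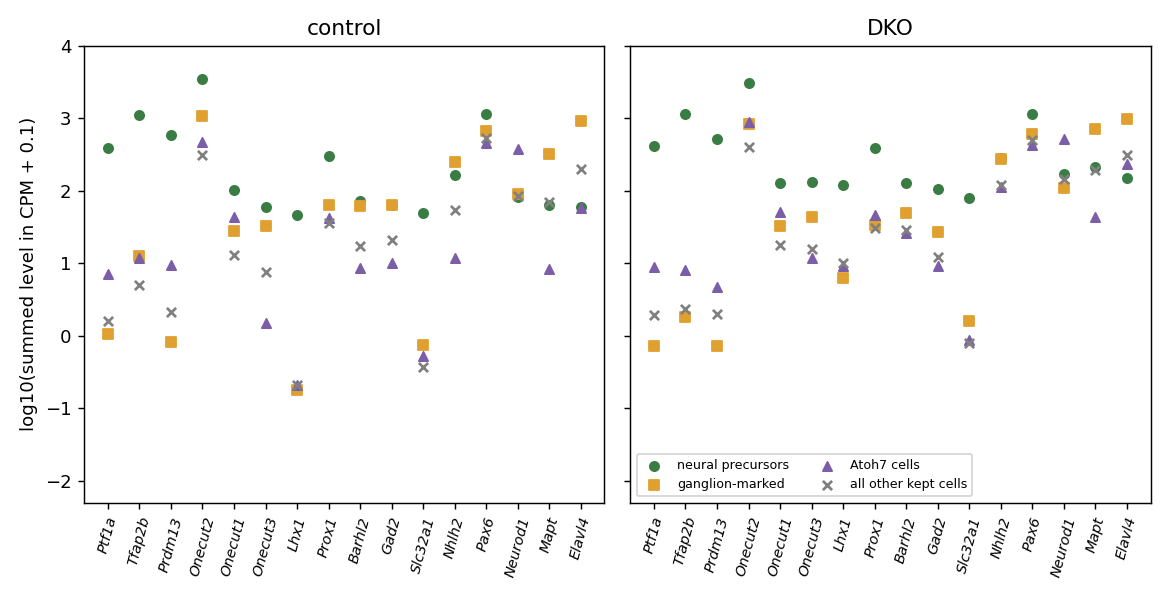
Summed level of 16 genes (y axis, log10 of CPM plus 0.1) in neural precursors, ganglion-marked cells, Atoh7 cells and all other kept cells, control left and DKO right, one point per group without replicates. Prdm13 and Slc32a1 lie far above the other groups in precursors of both libraries, while Lhx1 is higher in all 3 other groups of the DKO than of the control (9.99 and 0.110 CPM in all other kept cells).

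Precursors with and without a *Ptf1a* UMI differed in other genes, in both libraries. *Ptf1a* is a gene of the rule, so a cell without it had to reach the minimum through *Tfap2a* and *Tfap2b*. Precursors without a *Ptf1a* UMI had more *Onecut3*, with 195 CPM (104 to 333) against 35.9 CPM (19.1 to 61.4) in control and 265 CPM (201 to 343) against 65.4 CPM (43.5 to 94.6) in DKO. Their *Prdm13* level was 224 (166 to 296) against 673 CPM (598 to 756) in DKO, and 405 (267 to 589) against 633 CPM (553 to 720) in control, where the intervals overlapped. The median depth was alike with and without *Ptf1a*, at 5359 and 5499 UMIs in control and 3821 and 3800 in DKO. Cells without a *Ptf1a* UMI were 15.9% of control and 30.1% of DKO neural precursors (11 and 44 cells), shares that were not taken at equal depth. *Mapt* stood at 38.7 CPM in control and 147 CPM in DKO cells with *Ptf1a*, and at 195 (104 to 333) and 343 CPM (270 to 430) in cells without.

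*Lhx1* was also counted by the presence of *Tfap2a*, another gene of the rule, so cells without it were chosen through *Ptf1a* and *Tfap2b*, and these shares are a description. In the DKO 23 of 49 *Tfap2a* cells (46.9%, 32.5 to 61.7) had an *Lhx1* UMI, against 19 of 97 cells without *Tfap2a* (19.6%, 12.2 to 28.9). In control these were 3 of 9 (33.3%, 7.49 to 70.1) and 5 of 60 (8.33%, 2.76 to 18.4), with overlapping intervals. *Lhx1* cells did not lack amacrine genes. In the DKO *Prdm13* was found in 28 of 42 *Lhx1* cells and in 87 of 104 others, *Barhl2* in 25 and 36, and *Gad2* in 16 and 30. *Onecut3* stood at 237 CPM (176 to 311) in DKO *Lhx1* cells and 81.2 CPM (56.5 to 113) in the others.

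Genes of the ectopic forebrain-like program of the DKO were seen in some precursors. The list of 16 genes reached 5 or more UMIs in 0 of 69 control and 15 of 146 DKO neural precursors, at a summed level of 168 and 431 CPM. *Eomes* alone had a UMI in like shares of both, 9 of 69 control and 18 of 146 DKO neural precursors, not at equal depth. *Eomes*, *Lhx9*, *Tbr1* and *Rspo3* summed to 3 or more UMIs in 0 control and 7 DKO precursors, 6 of them neural. Of 16 genes on the list only *Samd5* could be compared over all precursors (log2 ratio 2.67, 1.47 to 4.17), and over neural precursors none could. *Tac1* had 46 UMIs in DKO neural precursors, of which 41 were in the 5 cells over 10000 UMIs, and 3 in control. *Emx2* had no UMI in neural precursors.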

How the data were processed

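Per the labels, the authors made libraries with the 10x Genomics Single Cell 3' kit and, from the submitters' processing notes, counted UMIs with Cell Ranger 3.1.0 on mm10. The authors deposited raw counts, whole numbers of UMIs per gene and cell, without normalization, for 10315 control and 12672 DKO cells. Depth was a median of 7486 and 5787 UMIs per cell. No cell annotation or Cre count was used here.

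Kept cells (7331 and 10127) had over 200 and under 6000 detected genes, 1 to 20% mitochondrial UMIs, less than 20% hemoglobin UMIs and less than 1% *Cryaa* and *Cryab* UMIs. The members and gene lists were chosen with earlier results of these data known. Libraries shared 22 barcodes, none among precursors. Levels are summed UMIs per 1000000 UMIs (CPM). Intervals are exact Poisson for levels, exact binomial (Clopper-Pearson) for shares and the exact binomial split for ratios, and they cover counting error only. A count of 0 was set at a floor of 3 UMIs. Named genes are the listed genes, the 10 highest and 10 lowest ratios, and the 10 genes that most set control precursors apart. Others were named after their values were seen. Scrublet (scanpy 1.11.5) called 320 and 386 doublets at a threshold of 0.21, which were kept. The ratio and its interval were tried on simulated Poisson counts of summed UMIs. The simulation had no variation between cells, so it cannot tell how the intervals behave where a few cells hold most UMIs. Gene positions are from GENCODE M21 (GRCm38). Python 3.11.15, numpy 2.4.6, scipy 1.17.1, pandas 2.3.3 and matplotlib 3.10.9 were used. Alternatives were thinning, stricter or looser choice of cells, doublets, marked or deep cells left out, other totals, equal weight per cell and a lower count minimum.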

Additional observations from a re-analysis of the deposited data

Results flagged for a closer look

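Some horizontal, amacrine or upstream genes had a ratio between DKO and control that pointed one way in neural precursors and the other way in another cell group, with both intervals clear of 0. These differences were not tested, since each genotype had 1 library. *Gad2* had a log2 ratio of 0.74 in neural precursors and -1.26 (-1.43 to -1.08) in ganglion-marked cells. *Prox1* had 0.33 in precursors and -0.93 (-1.09 to -0.76) in ganglion-marked cells, and *Barhl2* 0.83 and -0.33 (-0.48 to -0.19). *Onecut2* had -0.19 in precursors and 0.95 in *Atoh7* cells. *Rorb* had -0.20 in precursors and 0.061 (0.015 to 0.11) in ganglion-marked cells, a small difference in either group. Without cells over 10000 UMIs the precursor intervals of *Gad2* (0.48, -0.20 to 1.19), *Prox1* (0.25, -0.09 to 0.59) and *Barhl2* (0.59, -0.05 to 1.27) included 0, as did those of *Gad2* and *Prox1* over all precursors.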

How the results depend on the processing

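No paired analysis was possible because control and DKO had 1 library each. Thinned to 2000 UMIs, precursors were 0.706% of control and 1.14% of DKO cells, with 11 of 903 compared genes called higher and 9 lower. With 5 or more fate UMIs the DKO share was 1.24% and 42 of 3122 genes were called higher. Without the limits on *Isl1*, *Pou4f2* and *Atoh7* (added after the data were seen) the control share was 1.56%, with marked cells counted. Gene levels in that setting left out the marked cells, and 55 of 4367 genes were called lower. Without the marked cells 43 of 3289 genes were called higher, and 36 of 3209 when cells with ectopic markers were left out as well. Without marked cells and cells over 10000 UMIs (added) 26 of 2764 genes were called higher and 22 lower. Equal weight per cell gave 54 of 4004 genes lower. A minimum of 20 UMIs gave 339 of 7655 genes higher and 184 lower, and 1.32 as the median of the ectopic forebrain list. That list had no compared gene with cells thinned, with 5 or more fate UMIs or without marked cells. Of ratios whose interval left out 0, those reversed without marked cells were *Btg2* at -0.28 and *Hbb-bt* at -0.0083. Without marked and deep cells they were *Hbb-bs* at -0.049 and *Hbb-bt* at -0.28. Without both the marker limits and the marked cells they were *Prdm13* at 0.20, *Ebf1* at -0.61, *Neurod1* at -0.061, *Sox11* at 0.14, *Btg2* at -0.84 and *Hbb-bt* at -0.16. With only the marked cells left out, *Prdm13* stood at -0.20, *Ebf1* at 0.87, *Neurod1* at 1.05 and *Sox11* at -0.05. Some ratios with intervals that included 0 changed sign as well. Without both the marker limits and the marked cells these were *Tle1* at -0.52, *Meis2* at -0.40, *Pax6* at 0.14 and *Meis1* at 0.069. The cause was not tested. Of the values of single genes under these alternatives, 342 stayed within the counting interval, some with a change of sign near 0, 21 moved beyond it and 10 reversed. Depth limits genes under 60 UMIs, among them *Foxn4*, *Gad1* and *Calb1*, and without replicates no alternative bears on the spread between embryos.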
